A study of Bos taurus with 79 samples.

Results

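This account covers the endometrium of cyclic beef heifers on day 7 of the estrous cycle and sets 4 animals with high progesterone beside 5 with normal progesterone, 9 of the 79 arrays of the study. The arrays were chosen by their labels: day 7, cyclic status, and progesterone class. The whole study held 16 groups, made of 4 days of slaughter (5, 7, 13 and 16), 2 states (cyclic or pregnant) and 2 progesterone classes. All heifers were cross-bred beef animals whose estrus had been synchronised, and each sample is labelled as a biological replicate on an array of its own.

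The normal group (CN) was cyclic and received no device. The high group (CH) was cyclic and carried an intravaginal device that releases progesterone (PRID) from day 3 until slaughter on day 7. Heifers of the same day that were found to be pregnant, without the device (PN) and with it (PH), are used below as a second, separate set of animals, with 5 arrays in each. Cyclic animals were not inseminated, and assignment was random. The labels mention no device without hormone in CN, so the device and its hormone cannot be told apart here. RNA came from strips of endometrium of 300 mg, so each value averages all cell types of the strip. Arrays are written as CN 1 to CN 5 and CH 2 to CH 5 after the replicate numbers of the labels, and a CH replicate 1 was not analysed here.

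Progesterone from the corpus luteum acts on the endometrium through a nuclear receptor in epithelial and stromal cells, and after some days of exposure the epithelium loses that receptor and its secretion changes. The secretions, called histotroph, carry lipids, sugars, amino acids and proteins and nourish the conceptus before it attaches. In cattle, progesterone that rises early after ovulation is known to bring forward changes of the endometrium that normally come later and to go with longer conceptuses. The comparison of CH with CN asks which genes had responded by day 7 without an embryo.

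Values are the deposited log2 values per probe set, on which a difference of 1 is a 2-fold change. A probe set is a group of short probes against 1 transcript. Differences are high minus normal ± the standard error of the fit, and levels are means ± SD. Tests were made with limma over all 79 arrays, and "rose" and "fell" are kept for a Benjamini-Hochberg adjusted p under 0.05 over 24016 probe sets. A gene is read from its probe set with the highest mean. The spread in this fit is shared by all 16 groups, so an SE can be too small where these 9 arrays vary more. Levels under 3 lie near the floor of the values, and a real change from such a level can be larger than the difference measured. Such a difference is called a lower limit below, apart from its error.

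Most of the listed epithelial and stromal markers lay above the floor over the 9 arrays. EPCAM, an epithelial adhesion molecule, lay between 12.29 and 12.82, the epithelial keratin KRT18 between 9.71 and 10.31, the stromal proteoglycan DCN between 13.73 and 14.28, and the stromal filament protein VIM between 12.06 and 13.74. KRT8, a further epithelial keratin, was near the floor on every array, at 2.16 to 2.36. Of 17 epithelial markers 1 lay near the floor over the 9 arrays, and of 18 stromal markers 0. Among 10 markers of glandular epithelium 5 lay near the floor (SPINK1, PIGR, CLCA1, GP2 and PAEP). Red cell genes were near the floor for 5 of 6 markers, as were 12 of 25 markers of T and NK cells.

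A pair of arrays stood apart. Over all probe sets the deviations of CH 3 from the mean of its group mates had an SD of 0.761, the highest of all 79 arrays, and those of CN 5 an SD of 0.707. The other 7 arrays of the comparison lay between 0.40 and 0.46, and the median of all 79 arrays was 0.372, so these 9 arrays varied more than most. CH 3 also had the lowest median (4.71) and the narrowest distribution (SD 2.60) of all 79 arrays. CN 5 was the highest CN array for the lists of smooth muscle, stromal, macrophage, T and NK cell and immediate early genes, and the lowest for histotroph genes. Among the 1637 genes with both group means under 3, CH 3 gave the highest of the 9 values for 78.1%, against 20.1% over all 9155 genes. The main results are therefore given with and without CH 3 and CN 5.

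High progesterone went with changes in both directions in cyclic heifers. The largest rises were those of DGAT2, ASGR2, HAVCR1 and HPSE, and the largest falls those of the fructose transporter SLC2A5, the fatty acid carrier FABP3 and genes of cell division. Of 9155 genes 158 rose (1.73%) and 274 fell (2.99%), 432 in all (4.72%), and 43 of the rises (0.47%) and 85 of the falls (0.928%) were at least 2-fold. Every CH array lay above every CN array for 114 genes (1.25%) and below it for 185 genes (2.02%). The split depended on the scaling of the arrays: 36.6% of the genes called were higher in the deposited values, 55.1% after quantile normalization and 52.3% after median centring. The median difference over all genes was -0.04.

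Without CH 3 and CN 5 the calls shrank to 40 genes (0.437%), 27 higher (0.295%) and 13 lower (0.142%), of which 38 (0.415%) were also called with all 9 arrays. The direction was kept by 150 of the 158 genes that rose and by all 274 that fell. The fits share most arrays and the genes were chosen in the full fit, which favours a kept direction. Genes near the floor made up 45 of the 158 rises. CH 3 gave the highest value for 37 of these 45, and 2 of the 45 were called without the 2 arrays. Of the 113 other rises 25 were still called. CH 3 was the lowest of the 9 arrays for 73.4% of the genes that fell, and CN 5 the highest for 61.3%. Over all 9155 genes these shares were 32.7% and 26.4%. Leaving out CH 2 or CH 5, by contrast, raised the count to 1549 or 1396 genes. A limma fit on the 9 arrays alone called 0 named probe sets, with 1125 at an unadjusted p under 0.05, so the calls also rest on the spread estimated from the other groups.

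**Figure D1:**
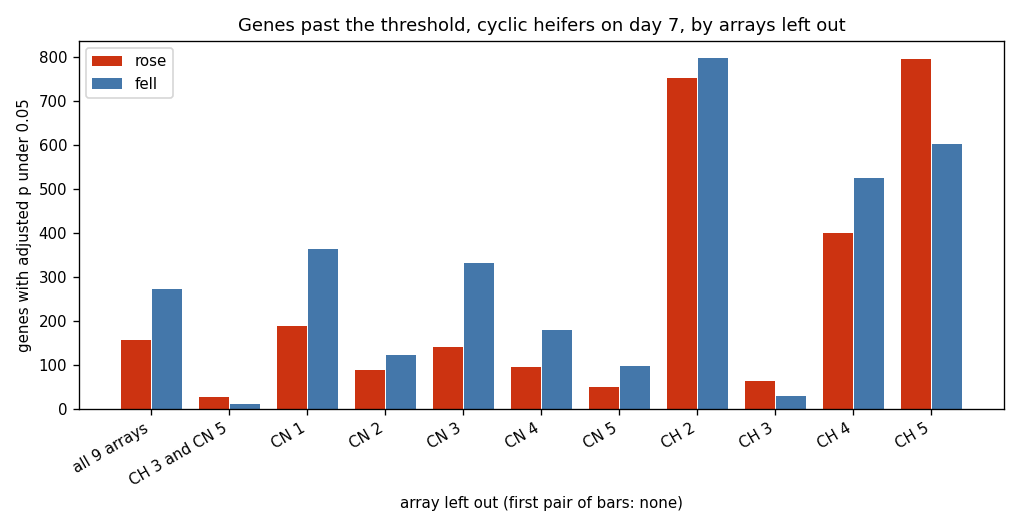
Number of genes with a limma adjusted p under 0.05 that rose (red) or fell (blue) in CH against CN, with all 9 arrays and with the named arrays left out. Counts drop to 94 genes without CH 3 and 149 without CN 5, and climb to 1549 without CH 2 and 1396 without CH 5.

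The largest rise was that of DGAT2 (gene ID 404129), the enzyme that makes triglyceride from diacylglycerol. It stood at 6.95, 4.93, 7.01, 6.56 and 3.10 in CN 1 to CN 5 and at 8.91, 9.07, 9.49 and 9.99 in CH 2 to CH 5. All CH arrays lay above all CN arrays, and CN 5 was the lowest. DGAT2 rose by 3.65 ± 0.66 (limma adjusted p = 0.000768) and by 3.10 ± 0.71 without CH 3 and CN 5 (adjusted p = 0.0225). The separate animals of the pregnant groups showed the same direction: DGAT2 ran from 5.11 to 6.98 in PN and from 7.28 to 9.02 in PH, without overlap, and rose by 2.53 ± 0.62 (limma adjusted p = 0.0323).

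ASGR2 (gene ID 531519), a subunit of the asialoglycoprotein receptor that takes up glycoproteins, stood at 7.20, 3.76, 3.67, 4.71 and 2.94 in CN and at 8.12, 7.57, 8.71 and 6.69 in CH. CN 1 lay within the CH range and the other CN arrays lay below it. The gene rose by 3.32 ± 0.56 (limma adjusted p = 0.000279) and by 3.01 without the 2 arrays (adjusted p = 0.00691). A second, dimmer probe set of ASGR2 differed by 1.48 (adjusted p = 0.0569), short of the threshold. In pregnant heifers the difference of 1.90 did not pass (adjusted p = 0.0812).

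HAVCR1 (gene ID 613999), a cell surface receptor for phosphatidylserine, was near the floor in all CN arrays, at 2.09, 2.07, 2.94, 2.04 and 2.05, against 3.10, 4.93, 5.54 and 5.68 in CH. The groups did not overlap. It rose by 2.58 ± 0.39 (limma adjusted p = 3.72e-05), by 2.49 without the 2 arrays (adjusted p = 0.001) and by 1.75 in pregnant heifers (adjusted p = 0.00688), each a lower limit. In PH the response was uneven, with 2.05 and 2.44 in PH 4 and PH 3 and 4.29 to 5.83 in the other 3.

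HPSE (gene ID 281230), heparanase, which cuts heparan sulfate chains of the matrix, stood at 4.22, 3.46, 2.52, 2.51 and 2.20 in CN and at 5.43, 2.99, 6.84 and 5.94 in CH. CH 3 lay among the CN arrays, and the other 3 CH arrays above all of them. HPSE rose by 2.32 ± 0.41 (limma adjusted p = 0.000456), and by 2.89 ± 0.38 without the 2 arrays (adjusted p = 1.84e-06). It rose by 2.21 ± 0.38 in pregnant heifers (adjusted p = 0.000571), where PN ran from 2.40 to 3.18 and PH from 3.79 to 6.05. The means were 2.98 in CN and 2.74 in PN. CN 1 and CN 2 lay above the floor and the other CN arrays near it, so these differences may understate the change.

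DGAT2, ASGR2, HAVCR1 and HPSE belong to a list of 44 measured histotroph and progesterone-response genes, compiled with published and earlier results on these animals in view and so no independent evidence. These 4 rose, FABP3, LGALS3 and SLC2A5 fell and 37 did not pass, with a list median of 0.03. Among all genes 1.73% rose and 2.99% fell. Without CH 3 and CN 5 the same 4 were the only members called, and no member fell. LTF, the iron-binding protein lactoferrin, differed by -1.16 ± 0.82 and ANPEP, an aminopeptidase, by 0.53 ± 0.53. DKK1, a secreted Wnt antagonist, differed by -1.19 ± 0.72, MEP1B, a meprin protease subunit, by 0.38 ± 0.47 and MSTN, the growth inhibitor myostatin, by -0.21 ± 0.79. TIPARP, a mono-ADP-ribosyltransferase, differed by -0.82 ± 0.34. The signs of LTF, ANPEP and MSTN turned when some arrays were left out. None of these 6 passed, with adjusted p from 0.106 (TIPARP) to 0.895 (MSTN).

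**Figure D2:**
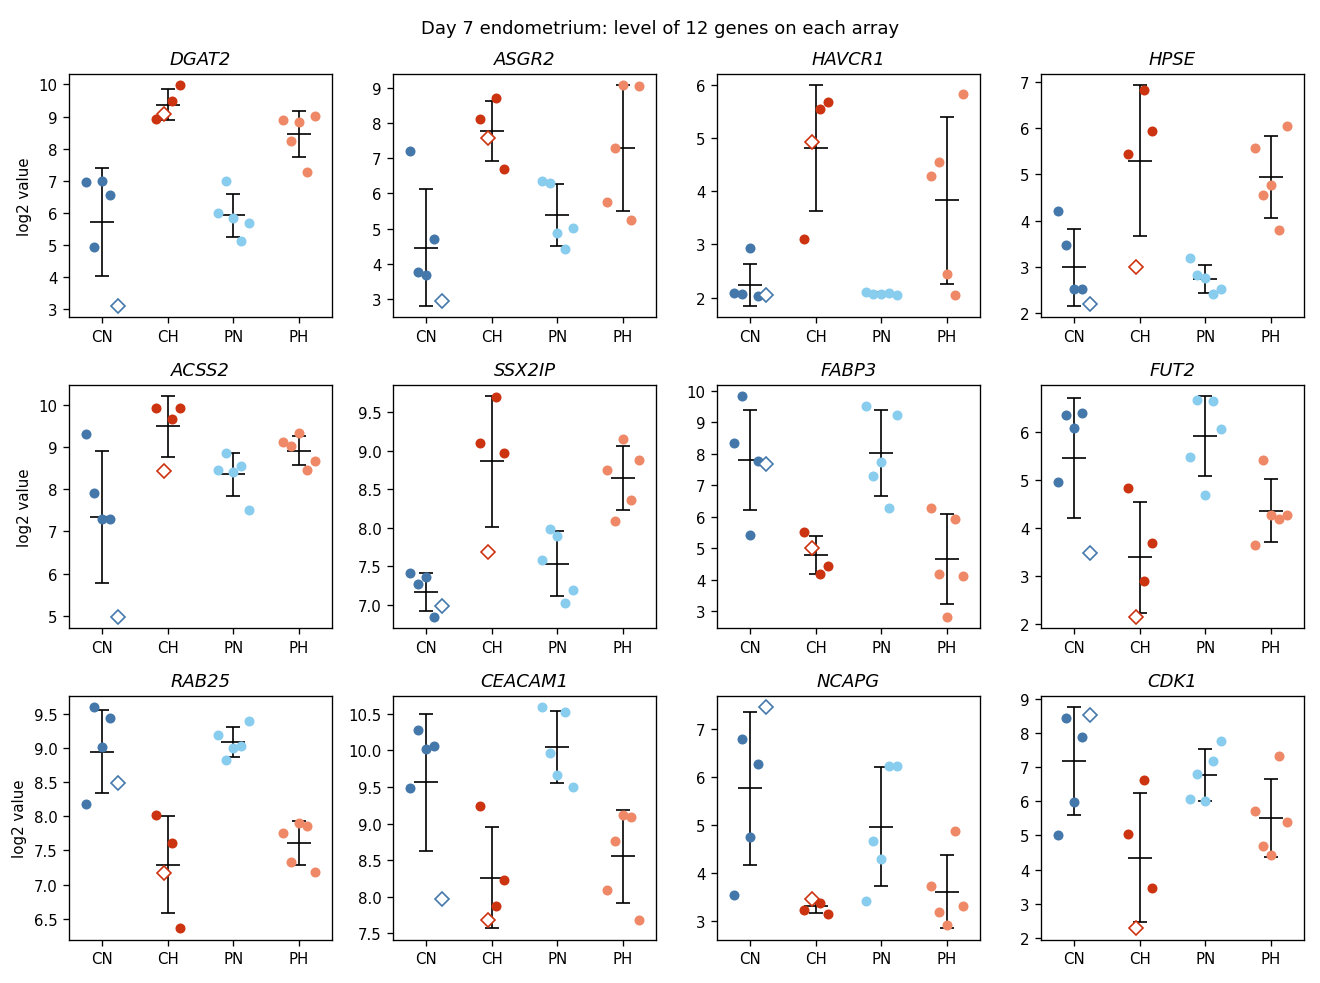
Log2 value of 12 genes on each day 7 array of cyclic (CN, CH) and pregnant (PN, PH) heifers; points are arrays, black bars the mean and SD, and open diamonds CN 5 and CH 3. DGAT2 and HAVCR1 show CH entirely above CN, RAB25 and NCAPG show CH entirely below CN, and in HPSE CH 3 lies with the CN arrays.

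Further genes of lipid metabolism rose. ACSS2 (gene ID 506459), which makes acetyl-CoA from acetate, stood at 9.30, 7.90, 7.29, 7.29 and 4.97 in CN and at 9.92, 8.42, 9.67 and 9.92 in CH. CN 1 overlapped the CH range and CN 5 was far below the rest. The rise was 2.13 ± 0.46 (limma adjusted p = 0.00449), 1.89 without the 2 arrays (adjusted p = 0.0334), and the gene lost its call without CN 5 alone. ACACA, acetyl-CoA carboxylase, which opens fatty acid synthesis, rose by 1.25 ± 0.34 with all CH arrays above all CN arrays, but its call was lost without CN 2, CN 5 or CH 3, and a second probe set differed by 0.28. Of 27 measured genes of fatty acid and triglyceride metabolism 2 rose (DGAT2 and ACACA) and 1 fell (FABP3). Over all genes 1.73% rose and 2.99% fell. The list median was 0.08, and ACSS2 was not on the list.

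Genes of cholesterol synthesis lay higher in CH. Of 16 measured genes 3 rose, against 1.73% of all genes, and none fell. The median difference was 0.61, and 15 of the 16 differences were above 0, against 4180 of all 9155 genes. HMGCS1, which forms the precursor of mevalonate, stood at 10.32, 10.89, 9.89, 9.94 and 11.09 in CN and at 11.33, 10.85, 11.87 and 11.40 in CH. Only CH 3 fell inside the CN range. HMGCS1 rose by 0.94 ± 0.28 (limma adjusted p = 0.0429) and by 1.28 without the 2 arrays (adjusted p = 0.0343). A second, dimmer probe set of HMGCS1 differed by 0.91 and passed in neither fit (limma adjusted p = 0.191 and 0.256). CYP51A1 and MSMO1, which remove methyl groups from the sterol ring, rose by 0.88 and 0.71 and lost their calls without the 2 arrays (0.95 and 0.84). For each of the 3 genes 5 of the 9 single omissions ended the call. As a list, the mean level ran from 7.59 to 8.12 in CN, stood at 8.50, 8.59 and 8.57 in CH 2, CH 4 and CH 5 and at 7.78 in CH 3. In pregnant heifers no member passed.

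Other rises came from a channel and from genes of the cytoskeleton and the cell junctions. CNGA1, a channel subunit gated by cyclic nucleotides, rose by 1.97 ± 0.40 (limma adjusted p = 0.00243) from a CN mean of 2.75, a lower limit, and by 2.39 without the 2 arrays (adjusted p = 0.001). SSX2IP, an adhesion and centrosome protein, stood between 6.84 and 7.41 in CN and at 9.10, 7.68, 9.70 and 8.97 in CH. It rose by 1.69 ± 0.33 (adjusted p = 0.00159), by 2.04 without the 2 arrays (adjusted p = 0.000659), and a second probe set gave 2.04. The groups did not overlap, and CH 3 was the lowest CH array.

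MAP2, a microtubule-associated protein, rose by 1.61 ± 0.34 and SYNE4, a nuclear envelope anchor, by 1.55 ± 0.37, and both kept their calls without the 2 arrays, while SYNE4 lost its own without CN 5 alone. The MAP2 groups did not overlap, whereas CN 1 was high for SYNE4, at 9.13. Another probe set of MAP2 rose by 2.16, and a further one differed by 0.94, short of the threshold (limma adjusted p = 0.0955). CGN, cingulin of the tight junction, rose by 0.98 ± 0.24, and by 1.12 without them. F11R, a junctional adhesion molecule, rose by 0.72 ± 0.15, with CH at 10.82 to 10.89 and CN at 9.37 to 10.58. These 2 were the only calls among 21 measured cell junction genes, against 1.73% of all genes that rose. The list median was 0.05. F11R lost its call without the 2 arrays (adjusted p = 0.0979), and its second probe set differed by 0.72 without passing (limma adjusted p = 0.101).

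Larger rises that were not called without CH 3 and CN 5 were those of DPP4, a surface dipeptidase (1.88 ± 0.50, then 2.12), CYP39A1, an oxysterol hydroxylase (1.85 ± 0.52, then 1.17), and TMEM100, a membrane protein (1.69 ± 0.49, then 1.87, with a second probe set near the floor at 0.02). Others were CYBRD1, a ferric reductase (1.67 ± 0.36, then 1.29), RTN1, a reticulon (1.60 ± 0.49, then 1.11), and EFNA1, an ephrin ligand (1.53 ± 0.31, then 1.12). In each of these 6 all CH arrays lay above all CN arrays, as did 1.25% of all genes. CN 5 was the lowest array for CYP39A1 (7.72, the others 10.79 to 12.14), RTN1 (5.26, the others 7.54 to 8.46) and EFNA1 (7.98, the others 9.85 to 10.90). Single omissions ended the calls of DPP4 (CN 4 or CH 3), CYP39A1 (CN 2, CN 5 or CH 3), RTN1 (CN 2, CN 4, CN 5, CH 3 or CH 4) and TMEM100 (all but CN 1, CH 2 and CH 5).

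Other rises by list were single genes, while 1.73% of all genes rose. AKR1B1, which makes prostaglandin F2 alpha in cattle endometrium, was the only call among 17 prostaglandin genes, at 1.06 ± 0.28 (limma adjusted p = 0.0252), and lost it without CN 2, CN 5 or CH 3. The mean of the prostaglandin list lay between 5.95 and 5.99 in CN and between 6.11 and 6.49 in CH, highest in CH 3. Of the 17 differences 13 were above 0, against 4180 of all 9155 genes. The list median was 0.18, and 0.08 without CH 3 and CN 5, where no member was called. CLU, the secreted chaperone clusterin, stood between 12.72 and 12.85 in CH and between 11.93 and 12.55 in CN. It rose by 0.53 ± 0.16 (adjusted p = 0.0492), a call lost without CN 2, CN 4, CN 5 or CH 3, and rose by 0.89 in pregnant heifers (adjusted p = 0.000571). TIMP2, an inhibitor of matrix metalloproteases, rose by 0.78 ± 0.20, while its 2 other probe sets differed by 0.04 and 0.01. Its call was lost without CN 5 or CH 3, and without both the difference was 0.50 (adjusted p = 0.371).

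The calls on PAEP, a secreted lipocalin, HDC, which makes histamine, SCNN1B, a sodium channel subunit, BMPR1B and the globin HBB came from levels near the floor, where CH 3 was the highest array each time. These were single calls on their lists: PAEP among 10 glandular markers, HDC among 12 of neutrophils and mast cells, SCNN1B among 24 transport genes and HBB among 6 red cell genes. Over all genes 1.73% rose. BMPR1B, a receptor of bone morphogenetic proteins, stood at 4.23 in CH 3 and between 2.27 and 2.35 on the other 8 arrays. Without CH 3 and CN 5 these 5 differences were 0.09, 0.00, 0.20, 0.03 and 0.19, and none passed.

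FABP3 (gene ID 281758), a fatty acid carrier, was among the largest falls. It stood at 8.36, 9.84, 5.43, 7.78 and 7.67 in CN and at 5.52, 4.99, 4.18 and 4.44 in CH. CN 3 lay just inside the CH range and the other CN arrays well above it. FABP3 fell by 3.03 ± 0.74 on the log2 scale (limma adjusted p = 0.013). The difference was -3.14 ± 0.86 without the 2 arrays (adjusted p = 0.0847), and the call was also lost without CN 2. In pregnant heifers it fell by 3.35 ± 0.70 (adjusted p = 0.00688).

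SLC2A5 (gene ID 282868), the fructose transporter, showed the largest fall, 3.58 ± 0.99 on the log2 scale (limma adjusted p = 0.0304). It stood at 4.63, 8.73, 7.76, 9.38 and 7.25 in CN and at 5.43, 2.30, 2.91 and 5.23 in CH, so that CN 1 lay within the CH range. The difference without the 2 arrays was -3.10 (adjusted p = 0.323), and the call was lost without CN 2, CN 4, CN 5 or CH 3. Of its other probe sets 1 differed by -3.24 (adjusted p = 0.00646) and 1, near the floor, by 0.08. PFKL and PFKP, subunits of the glycolytic enzyme phosphofructokinase, fell by 0.91 and 1.04, and CH 3 was their lowest array, at 5.74 and 2.47. Without the 2 arrays they differed by -0.24 and -0.65. With SLC2A5 they were the 3 calls among 25 genes of glucose transport and glycolysis, against 2.99% of all genes that fell. The list median was -0.08.

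FUT2 (gene ID 281175), which adds fucose to surface glycans, stood at 4.97, 6.37, 6.09, 6.41 and 3.47 in CN and at 4.83, 2.13, 2.89 and 3.69 in CH. CN 5 was the only CN array inside the CH range. FUT2 fell by 2.08 ± 0.41 on the log2 scale (limma adjusted p = 0.00159) and by 2.16 ± 0.39 without the 2 arrays (adjusted p = 0.00118). It fell by 1.55 ± 0.38 in pregnant heifers (adjusted p = 0.0329).

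RAB25 (gene ID 506482), an epithelial GTPase of membrane recycling, stood at 8.18, 9.60, 9.02, 9.44 and 8.49 in CN and at 8.03, 7.17, 7.62 and 6.36 in CH, without overlap. It fell by 1.65 ± 0.31 (adjusted p = 0.00133), by 1.73 without the 2 arrays (adjusted p = 0.00704) and by 1.48 in pregnant heifers (adjusted p = 0.00541), where PN ran from 8.82 to 9.39 and PH from 7.19 to 7.90. RAB25 was the only call among 17 epithelial markers, while 2.99% of all genes fell. The mean of these markers ran from 7.77 to 8.07 in CN and from 7.75 to 7.97 in CH.

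CEACAM1 (gene ID 404118), a surface adhesion molecule, fell by 1.30 ± 0.33 (limma adjusted p = 0.0176), by 1.51 without the 2 arrays (adjusted p = 0.0188) and by 1.50 in pregnant heifers (adjusted p = 0.00688). A second probe set fell by 1.11 (adjusted p = 0.0435), and the call was lost without CN 2, CN 4 or CH 3 alone. ITGB3, an integrin subunit, stood at 9.99 to 10.79 in CN and at 9.35, 7.84, 8.82 and 8.42 in CH, and fell by 1.61 ± 0.31, or 1.40 without the 2 arrays. Its 3 other probe sets did not pass, at 0.07, -0.09 and -0.50. VCAM1, an adhesion molecule for leukocytes, fell by 1.72 ± 0.46 without overlap of the groups, and lost its call without CN 1, CN 2 or CH 3, and without the 2 arrays (-1.70). With LGALS3, the lectin galectin 3 (-0.74, not called without the 2 arrays), these were the 4 calls among 22 mucin, adhesion and surface glycoprotein genes. The list median was -0.24, and 2.99% of all genes fell. All 4 were downward in the deposited values. After median centring 1 member rose, and 2 after quantile normalization, against 160 and 283 of all 9155 genes. The mean of the list ran from 7.62 to 7.92 in CN and from 7.12 to 7.55 in CH.

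SLC37A4 (gene ID 506423), the glucose 6-phosphate transporter of the endoplasmic reticulum, fell by 1.98 ± 0.44 (limma adjusted p = 0.00539) and by 1.92 without the 2 arrays (adjusted p = 0.0343), but lost its call without CH 3 alone. It stood at 8.41, 8.56, 9.46, 10.01 and 7.37 in CN and at 8.17, 5.56, 7.01 and 6.41 in CH, so CN 5 lay within the CH range. A second probe set gave -1.77 (adjusted p = 0.00356), while another, near the floor, passed in the opposite direction at 0.55 (adjusted p = 0.0433). The list of endoplasmic reticulum folding and secretion had 5 falls among 31 genes, against 2.99% of all genes, and no rise. Its median was -0.35. After quantile normalization 1 member rose, against 283 of all 9155 genes. DNAJC10, a disulfide reductase of that compartment, fell by 0.76 ± 0.16 (adjusted p = 0.00324), and its next brightest probe set by 0.95 (adjusted p = 0.0016). A dimmer one differed by -0.56 and did not pass (adjusted p = 0.0883). CH 3 had the lowest level of the list, 9.33, the other 3 CH arrays lay between 9.74 and 9.98 and CN between 9.90 and 10.06. None of the 5 was called without the 2 arrays.

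Genes of cell division made up most of the largest falls. Of 30 measured genes of the cell cycle and mitosis 16 fell and none rose, against 2.99% of all genes that fell, and 28 of the 30 differences were below 0, with a median of -1.62. CDK1 (gene ID 281061), the kinase that drives mitosis, stood at 5.02, 8.43, 5.97, 7.88 and 8.54 in CN and at 5.03, 2.28, 6.61 and 3.45 in CH. CN 1 lay with the CH arrays, and CH 4 lay above CN 1 and CN 3. CDK1 fell by 2.82 ± 0.62 (limma adjusted p = 0.0049), but differed by -1.79 without the 2 arrays (adjusted p = 0.338).

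NCAPG (gene ID 531234), a condensin subunit, was the clearest of this kind and was not on the list. It stood at 3.54, 6.79, 4.74, 6.26 and 7.44 in CN and at 3.23, 3.45, 3.37 and 3.14 in CH, all below CN, although CN 1 was only just above CH 3. NCAPG fell by 2.46 ± 0.45 (limma adjusted p = 0.000768) and by 2.09 ± 0.48 without the 2 arrays (adjusted p = 0.0245). The difference in pregnant heifers was -1.36 ± 0.42 (adjusted p = 0.15).

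BIRC5, the chromosomal passenger protein survivin, fell by 2.88, UBE2C, a ubiquitin carrier that acts late in mitosis, by 2.87, and CDC20, its partner in the anaphase-promoting complex, by 2.76. The checkpoint kinases BUB1B and BUB1 fell by 2.66 and 2.26, the spindle protein NUSAP1 by 2.52 and the kinetochore protein CENPF by 2.16. PCLAF, a PCNA-binding factor, fell by 2.94, SHCBP1 by 2.45 and the kinase MELK by 2.24. Without CH 3 and CN 5 these 10 differed by -1.41 to -2.49 and none was called, with adjusted p from 0.0763 to 0.456. No call was left on the whole list, and 0.142% of all genes fell in that fit. On the list 29 of the 30 differences were below 0 and the median was -1.39. BUB1 and CENPF each had a dimmer probe set at -0.14 and -0.40.

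The normal heifers differed widely among themselves in these genes. The mean of the list was 3.74, 6.26, 4.49, 5.71 and 6.22 in CN 1 to CN 5 and 3.96, 3.58, 4.19 and 3.47 in CH 2 to CH 5. The CH arrays were uniformly low, while CN 1 was as low as they were and CN 3 only slightly higher. In strips of tissue fewer dividing cells and less of this RNA per cell cannot be told apart. Of the list 6 genes fell without CN 2, CN 5 or CH 3 alone, and 21 without CN 1. Over all 9155 genes 123, 99 and 31 fell without CN 2, CN 5 and CH 3, and 364 without CN 1. In pregnant heifers no member passed and the differences of its 8 genes named above ran from -0.94 to -1.53. The list lost no direction under the other scalings, with 14 falls after median centring and 17 after quantile normalization. Of all 9155 genes 146 and 231 fell under these scalings.

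DNA replication and nucleotide synthesis went the same way, with 9 of 25 genes falling, against 2.99% of all genes, none rising and a median of -0.50. RFC4 (gene ID 504637), a subunit of the clamp loader, stood at 6.05, 6.86, 6.37 and 7.58 in CN 1, CN 2, CN 4 and CN 5 and at 4.95, 5.10, 5.78 and 5.60 in CH. CN 3 was the lowest CN array, and it too lay above every CH array. It fell by 1.22 ± 0.21 (limma adjusted p = 0.00032) and by 0.88 without the 2 arrays (adjusted p = 0.0343), the only member called there. In pregnant heifers RFC4 differed by -0.05 ± 0.20, and the difference between these effects was -1.16 ± 0.29 (adjusted p = 0.108).

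RRM2, the ribonucleotide reductase subunit, fell by 2.90 ± 0.63, with CH between 3.37 and 3.65 and CN 1 below them at 3.16, and differed by -2.40 without the 2 arrays (limma adjusted p = 0.127). The helicase subunit MCM3 fell by 1.29, the sliding clamp PCNA by 0.84 and MYC, a transcription factor of growth, by 1.25. CN 5 was the highest array for all 3, and without the 2 arrays they differed by -0.76, -0.51 and -0.50. MYC stood at 9.12 in CN 5 and at 5.99 to 6.88 in the other CN arrays. A second probe set of MCM3, near the floor, differed by -0.03.

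Further falls were single members of their lists, while 2.99% of all genes fell, and none was called without CH 3 and CN 5. PLAU, the urokinase that activates plasminogen, stood at 5.87 to 7.08 in CN and at 4.13 to 5.44 in CH and fell by 1.40 ± 0.37. It was the only fall among 37 proteases and inhibitors, of which DPP4 and TIMP2 rose, and it lost its call without CN 5 or CH 3. COL5A2, a fibrillar collagen chain, fell by 0.91 (38 matrix genes), P4HA2, a collagen prolyl hydroxylase, by 0.89 (21 hypoxia genes), SHMT2, a mitochondrial serine enzyme, by 0.74 (20 amino acid genes) and TCF7, a Wnt effector, by 0.74 (17 Wnt genes). CN 5 was the highest array and CH 3 the lowest for all 4. A second probe set of TCF7 differed by -0.34 and did not pass. MYC was the only call among 24 immediate early genes and CLU the only one among 21 complement genes. BMPR1B and the inhibin subunit INHA (0.19, near the floor) were the calls among 25 genes of the TGF beta system. No member passed among 21 growth factors, 17 antigen presentation genes, 39 chemokines and cytokines, 38 oxidative phosphorylation genes and 32 ribosomal proteins. Over all genes 4.72% were called in either direction.

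**Figure D3:**
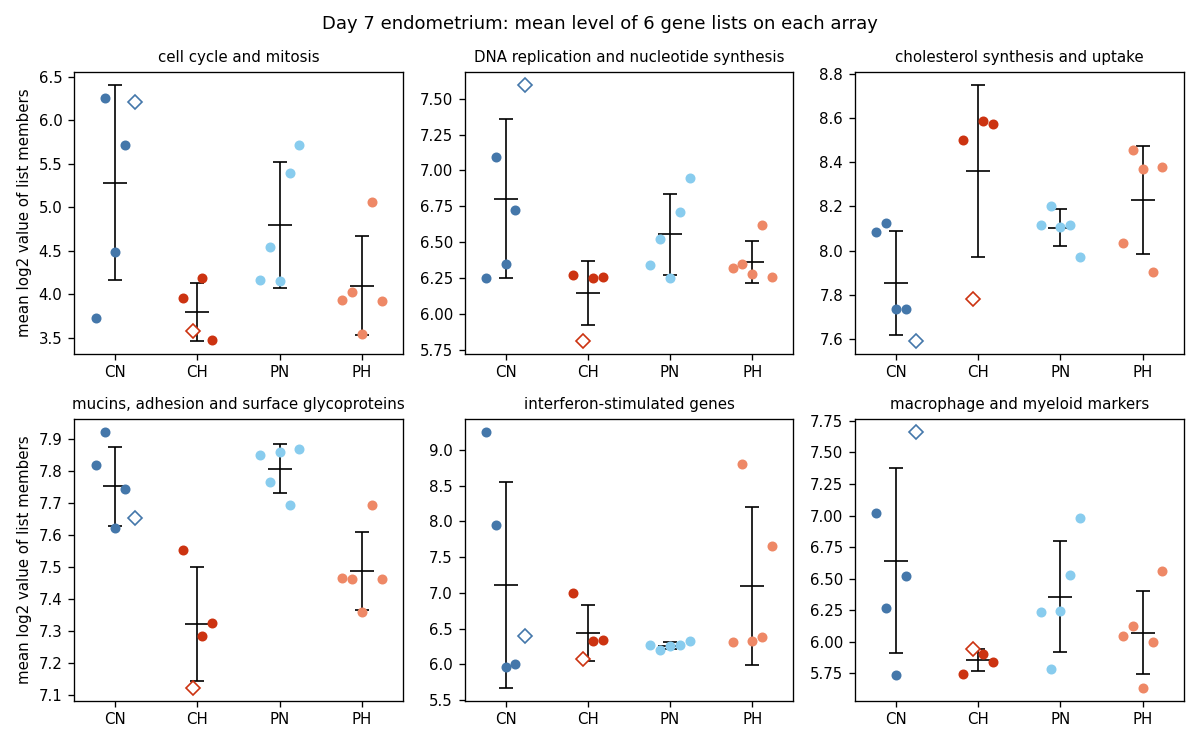
Mean log2 value of the members of 6 gene lists on each day 7 array, with the group mean and SD in black and CN 5 and CH 3 as open diamonds. The cell cycle panel shows CN spread from 3.74 to 6.26 and CH between 3.47 and 4.19, and the cholesterol panel shows CH 3 apart from the other 3 CH arrays.

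The receptors of the steroid hormones did not pass. PGR, the progesterone receptor, stood at 3.17, 4.31, 2.38, 2.51 and 4.54 in CN and at 2.50, 2.67, 2.53 and 3.07 in CH, a difference of -0.69 ± 0.32 (limma adjusted p = 0.153) at levels near the floor on most arrays. CN 2 and CN 5 were the high arrays and the groups overlapped. ESR1, the estrogen receptor, lay between 2.19 and 2.79 on all 9 arrays (0.01 ± 0.22), near the floor. OXTR, the oxytocin receptor, differed by -0.94 ± 0.87 (adjusted p = 0.502), with CN 5 at 8.65. None of 13 steroid receptor and cochaperone genes and none of 14 genes of the insulin-like growth factor system passed. With 4.72% of all genes called, lists of this size would hold few calls or none.

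Genes of immune cells and of the interferon response varied widely among the normal heifers. None of 37 interferon-stimulated genes passed, against 4.72% of all genes. Of the 37 differences 35 were below 0, against 4975 of all 9155 genes. Their mean level was 9.25 in CN 1 and 7.95 in CN 2, 6.99 in CH 2 and 5.97 to 6.39 on the other 6 arrays. Of 14 measured macrophage and myeloid markers 13 were lower in CH and none passed. Their mean ran from 5.74 to 7.66 in CN, highest in CN 5 and CN 1, and from 5.74 to 5.94 in CH. The complement component C1QA differed by -1.03 (limma adjusted p = 0.101) and the monocyte marker CD14 by -0.93 (adjusted p = 0.13). The part of such cells in the falls was not tested. No marker of stromal fibroblasts (18), smooth muscle (10), endothelium (16), T and NK cells (25), B and plasma cells (11) or ciliated cells (6) passed. At the share of 4.72% over all genes, lists of this size would hold few calls or none.

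The pregnant heifers of day 7 shared no array with the cyclic ones, and their own comparison, PH minus PN, called 57 genes (0.623%), 17 higher (0.186%) and 40 lower (0.437%). Over probe sets the count was 72, and 24 without PH 5. Of the 158 genes that rose in cyclic heifers 102 (64.6%) differed upward in pregnant ones, against 48.3% of all genes whose cyclic difference was above 0. Of the 274 that fell 249 (90.9%) differed downward, against 63.6% of all genes with a cyclic difference below 0. In all, 27 genes were called in both, 9 upward and 18 downward, and none was called in opposite directions.

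Besides DGAT2, HPSE, HAVCR1, TMEM100 and CLU the rises shared by both states were OGA, which removes O-linked N-acetylglucosamine, SIAE, a sialic acid esterase, CCKBR, the gastrin receptor, and PROCA1. SIAE stood at 8.47, 7.63, 7.54, 7.86 and 6.25 in CN and at 8.58, 8.48, 9.24 and 8.87 in CH, and rose by 1.24 ± 0.28, and by 1.17 in pregnant heifers. The groups did not overlap, but CH 3 was level with CN 1. OGA rose by 0.46 and 0.47. None of these 4 was called in cyclic heifers once CH 3 and CN 5 were left out, with 1.02 for SIAE (limma adjusted p = 0.0979), 0.49 for OGA (adjusted p = 0.0657), 0.94 for CCKBR (adjusted p = 0.0595) and 0.99 for PROCA1 (adjusted p = 0.237).

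Besides FABP3, FUT2, RAB25 and CEACAM1 the shared falls included GMPS, an enzyme of guanine nucleotide synthesis, CKB, the brain-type creatine kinase, STRN, the scaffold striatin, and TEX30. GMPS stood at 8.28, 8.46, 8.51, 8.56 and 7.99 in CN and at 7.94, 7.28, 7.68 and 7.76 in CH, without overlap. It fell by 0.69 ± 0.14 (limma adjusted p = 0.00204), by 0.66 without the 2 arrays (adjusted p = 0.0198) and by 0.72 in pregnant heifers (adjusted p = 0.00135). CKB fell by 1.42 in cyclic and by 1.35 in pregnant heifers, and TEX30 by 1.43 and 1.41. Neither was called without CH 3 and CN 5, whereas STRN was, at -1.07 (adjusted p = 0.027). The genes of these last paragraphs other than those named earlier were chosen after their values were seen.

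The 38 genes called with and without CH 3 and CN 5 held 27 that rose and 11 that fell. In pregnant heifers 25 of the 27 and all 11 differed the same way, 3 and 5 of them past the threshold. Of all genes with a cyclic difference above or below 0, 48.3% and 63.6% differed the same way. Over all genes 0.186% were called higher and 0.437% lower in pregnant heifers. The 38 genes were picked for their cyclic differences. Besides the genes above they included LCAT, which esterifies cholesterol in lipoproteins, at 1.26 ± 0.31 and, without the 2 arrays, 1.45, and OSBP2, an oxysterol-binding protein that rose by 1.03 ± 0.21, then 1.17, from a level near the floor. SLC4A11, a membrane transporter of the bicarbonate family, stood between 2.26 and 2.76 in CN and at 3.10, 3.12, 4.35 and 5.47 in CH. It rose by 1.36 ± 0.28 (limma adjusted p = 0.00299), and by 1.68 without the 2 arrays, both lower limits, while in pregnant heifers it differed by 0.16.

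The selective autophagy receptor CALCOCO2 rose by 0.95, and by 0.93 without the 2 arrays, and the scaffold SPAG9 by 0.88 and 0.90. PPP2CB, a catalytic subunit of protein phosphatase 2A, was a small change on little spread. It stood between 10.80 and 11.12 in CN and at 11.32, 11.63 and 11.64 in CH 2, CH 4 and CH 5, while CH 3 lay within the CN range. It rose by 0.44 ± 0.09 (limma adjusted p = 0.00353), and by 0.59 ± 0.10 without the 2 arrays (adjusted p = 0.000179). TGIF1, a homeobox repressor of TGF beta signalling, fell by 0.75 ± 0.16 without overlap, at 9.43 to 9.73 in CN and 8.51 to 9.25 in CH. It fell by 0.78 without the 2 arrays and differed by -0.18 in pregnant heifers. These genes too were picked after their values were seen.

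A difference between the states was tested directly, as the effect of progesterone in cyclic minus that in pregnant heifers. It passed for 2 of 13292 probe sets with a gene name (0.015%), 1 of HBB (0.47) and a dim one of TEPSIN (0.17). CH 3 was the highest array for HBB. The count was unstable, at 872 without CH 2 and 1150 without CH 5. Without CH 3 and CN 5 the limma fit called 0, with 388 at an unadjusted p under 0.05. For DGAT2 the difference of the effects was 1.12 ± 0.91, for ASGR2 1.42 ± 0.77, for CDK1 -1.57 ± 0.85 and for HPSE 0.11 ± 0.56, none past the threshold. These errors leave room for unequal effects.

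**Figure D4:**
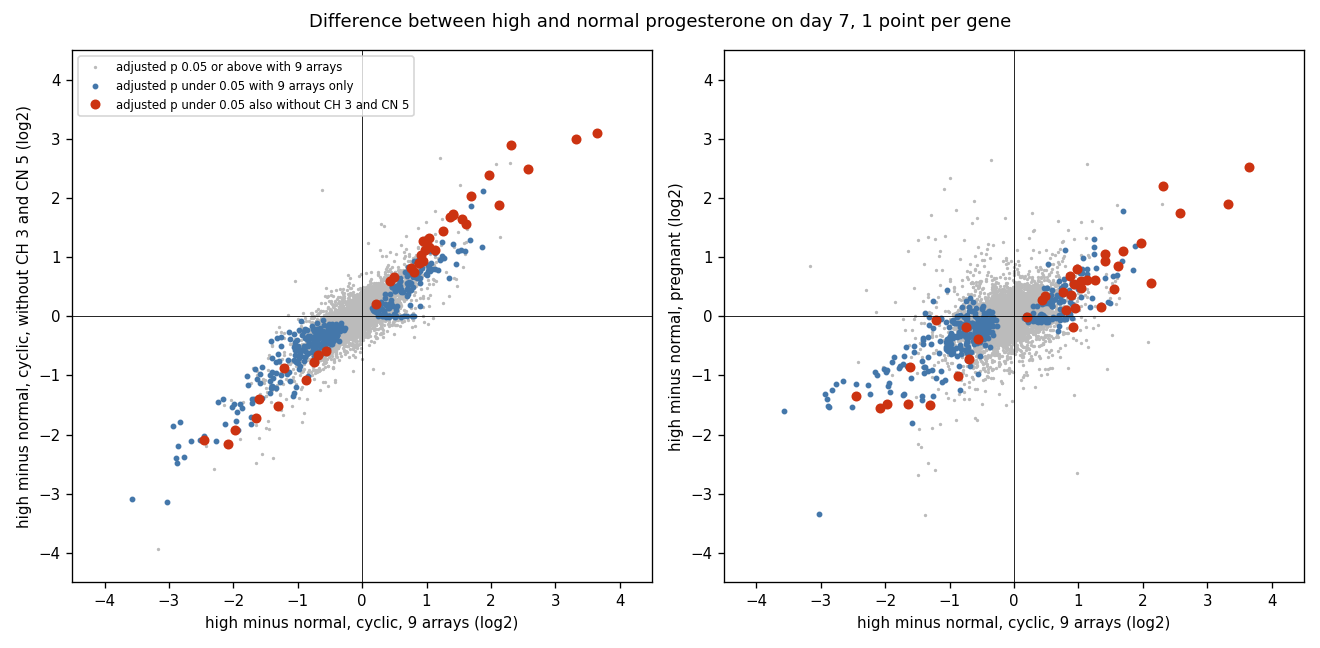
Log2 difference of each of 9155 genes between high and normal progesterone in cyclic heifers with all 9 arrays (horizontal) against the same without CH 3 and CN 5 (left) and against the pregnant heifers (right). Red points, the 38 genes called with and without the 2 arrays, hold their side of 0 in the left panel, as their choice requires. Many blue points, called with all 9 arrays only, lie near 0 there.

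Day 7 was set beside the later course of the endometrium, taken from PN heifers, which share no array with CN or CH. Between days 7 and 13 in PN 2231 genes changed (24.4%), 831 upward (9.08%) and 1400 downward (15.3%). Of the 274 genes that fell with progesterone in cyclic heifers 231 (84.3%) also differed downward in that course, 146 of them called, against 65.1% of all genes with a cyclic difference below 0. Of the 158 that rose 78 (49.4%) differed upward, 47 of them called and 6 called downward, against 43.1% of all genes with a cyclic difference above 0.

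Single genes went both ways. MAP2 rose by 3.94 and TMEM100 by 3.41 in the course from day 7 to day 13, DPP4 by 3.00 and DGAT2 by 2.44, the direction they had with high progesterone. SLC37A4 fell by 4.25 and FUT2 by 3.83, also the same way. ASGR2 fell by 1.42 (limma adjusted p = 0.0483) and ACSS2 by 1.43 (adjusted p = 0.0129), opposite to their rise in CH. HPSE differed by -0.13 and HAVCR1 by 0.34, and neither changed in the course.

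A course level was made for each array from the 292 genes that rose (3.19%) and the 464 that fell (5.07%) at least 2-fold between days 7 and 13 in PN, as the mean of the first minus the mean of the second. It was -0.95, -1.35, -1.27, -1.45 and -0.63 in CN 1 to CN 5 and -0.80, 0.05, -0.40 and -0.32 in CH 2 to CH 5. The CH arrays lay higher, apart from CH 2, which was below CN 5, and both arrays that stand apart had the highest level of their group. The means were -1.13 ± 0.34 (SD, n = 5) and -0.37 ± 0.35 (SD, n = 4), and -1.25 ± 0.22 (SD, n = 4) and -0.51 ± 0.26 (SD, n = 3) without CN 5 and CH 3, an omission added for this level after the data were seen. The means stood at -1.07 in CN and -0.98 in CH on day 5 and at 1.89 and 2.24 on day 13. No test was made of the course level. PH on day 7 averaged -0.49 ± 0.40, and PN -1.38, a value that its use in choosing the genes helps to fix.

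**Figure D5:**
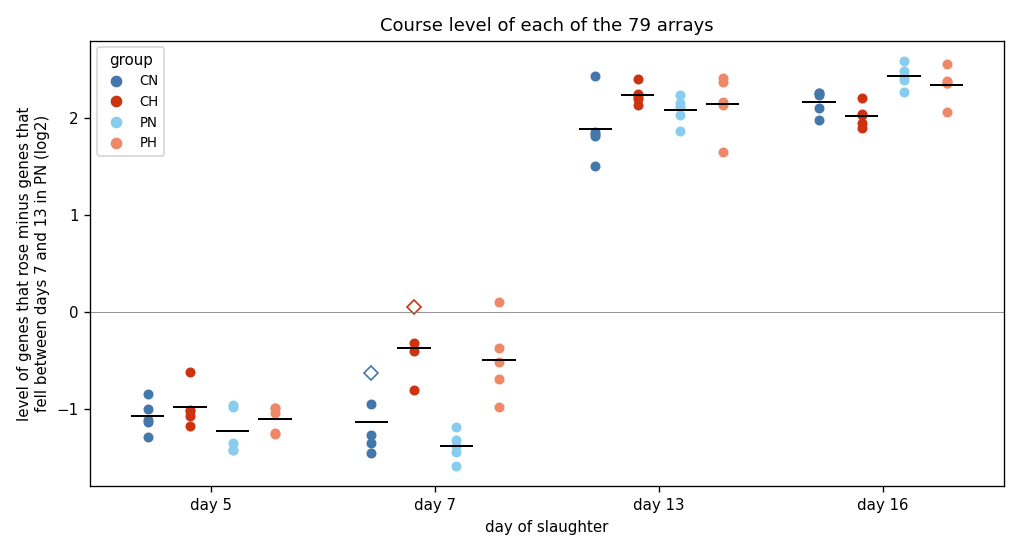
Course level (log2) of each of the 79 arrays by day and group, with black bars for group means and open diamonds for CN 5 and CH 3; PN on days 7 and 13 chose the genes. On day 7 the CH arrays run from -0.80 to 0.05 and CN from -1.45 to -0.63, while all arrays of days 13 and 16 lie at 1.51 or higher.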

How the data were processed

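Endometrial RNA was hybridised to Affymetrix bovine arrays, 1 per heifer. The authors deposited 1 table of log2 values for 24128 probe sets and 79 arrays. The submitters' processing notes name RMA, GCRMA and limma, without saying which made the values. Scan dates were not given in the sources used here. Nothing was rescaled here, and 112 control probe sets were left out. GEO's platform annotation gave 13292 probe sets 1 symbol, 86 several and 10638 none, and 9155 genes were each read from their brightest probe set.

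A group-means model over 79 arrays and 16 groups (63 residual degrees of freedom) was fitted with limma 3.58.1 in R 4.3.3 (lmFit, eBayes), with Benjamini-Hochberg adjustment over 24016 probe sets and calls under 0.05. The p-values measure the spread between animals as labelled. The number of arrays limits the precision. The code was tested on simulated data. Plots used Python 3.11.15, pandas 2.3.3 and matplotlib 3.10.9.

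Named genes were the 15 largest rises and 15 largest falls that kept their sign without CH 3 and CN 5, 13 genes always named, and up to 3 called members of each of 38 gene lists (769 genes measured). The largest genes called both with and without CH 3 and CN 5 were also named. FUT2 and SLC37A4 came in by this last rule, so their calls without the 2 arrays are no separate evidence. Other names are said to be chosen later. Genes and lists were chosen with earlier results of these data known. Alternatives were other scalings, fewer groups in the fit, array weights (statmod 1.5.0), a replicate block, a trend in the prior, brighter probe sets only, other probe sets of a gene, and the omission of arrays. Same-numbered arrays of CN and CH did not deviate together, so the numbers were not treated as pairs.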

Additional observations from a re-analysis of the deposited data

Results flagged for a closer look

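In groups of 4 or 5 arrays an array was set apart when its gap to the nearest other array took most of the range of its group, a test that chance passes in about 1 group in 20. Many groups were tested, and no explanation of the following values was tested.

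CN 5 was the lowest CN array for RTN1 (5.26), LTF (8.13) and ANPEP (6.36) and the highest for MSTN (8.05) and MYC (9.12). It also stood apart in the mean of several lists, low for histotroph genes (6.37) and high for immediate early genes (7.87), ribosomal proteins (14.03), stromal markers (10.36) and T and NK cell markers (4.14).

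CH 3 was the lowest CH array for ACSS2 (8.42), PFKL (5.74), AKR1B1 (13.90) and TRAM1 (10.60), and the highest for BMPR1B (4.23) and HDC (3.65). Its list levels were low for DNA replication (5.81), cholesterol synthesis (7.78) and cell junctions (8.18), and high for erythrocyte markers (2.94).

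Other arrays stood apart in single values. HAVCR1 was 2.94 in CN 3, CNGA1 4.09 and CYP51A1 10.94 in CN 2, ITGB3 10.79 in CN 4 and RTN1 9.26 in CH 4, each the highest of its group. The T and NK cell markers were lowest in CH 2 (3.08).

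The effect of progesterone differed between cyclic and pregnant heifers, by limma's test of the difference itself, for 2 probe sets. The effect in cyclic minus that in pregnant heifers was 0.47 for HBB and 0.17 for TEPSIN. HBB lay near the floor, with a mean of 2.82 over the 9 arrays of CN and CH. In cyclic heifers its other probe sets differed by 0.25, 0.04 and 0.15 and did not pass. Without CH 3 alone no named probe set passed the test of the difference. The same held when CN 1, CN 2, CN 4 or CN 5 alone was left out. It also held without PN 1, PN 2, PN 3, PH 1, PH 3, PH 4 or PH 5, so the loss was not particular to CH 3.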

How the results depend on the processing

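The number of calls depended strongly on the processing. For high against normal progesterone in cyclic heifers 560 named probe sets passed. Without CH 3 and CN 5 the count was 60, with array weights 156, on day 7 arrays alone 1 (1885 at an unadjusted p under 0.05), on the 2 groups alone 0 (1125) and with the replicate number as a block 1 (1126), all with limma. Leaving out 1 array gave 125 (CH 3) to 2229 (CH 2) calls, and the other large shifts were 264 (CN 2 out), 341 (CN 4), 192 (CN 5), 1332 (CH 4) and 2129 (CH 5). Quantile normalization gave 714, median centring 383, a trended prior 635 and brighter probe sets 377.

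In pregnant heifers 72 passed, and 224 with array weights, 0 on the 2 groups alone (1690 unadjusted), 0 on day 7 arrays (989) and 0 with the block (1597), with 24 (without PH 5) to 85 when 1 array was left out. The difference between the states gave 2 calls, 0 without CH 3 and CN 5 (388), on the groups compared alone (486), after median centring (1568), with brighter probe sets (468) and with the block (679), 1 with a trended prior and 20 with array weights. Leaving out 1 array gave 0 to 1150 calls there (CH 5 out 1150, CH 2 out 872, CH 4 out 20, PN 5 out 7). The count for day 13 against day 7 in PN, 2762, stayed between 2321 and 3745.

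Of 74 named genes 65 were called. Of these 47 lost their call without CH 3 and CN 5, all 65 on the groups compared alone, 64 with the block, 43 with array weights, 8 after median centring, 4 after quantile normalization and 0 with a trended prior. Signs turned as follows. Other probe sets gave 0.080 for SLC2A5, 0.068 for TRAM1, 0.067 for ITGB3 and 0.55 for SLC37A4. ESR1 was -0.041 after quantile normalization and -0.039 with the block, LTF 0.17 with array weights, and ANPEP -0.14 and MSTN 0.51 in the absence of CH 3 and CN 5. Over single omissions OXTR ran from -1.48 to 0.028 (CN 5 out), ESR1 from -0.092 (CH 5 out) to 0.11, LTF from -2.10 to 0.13 (CH 3 out), ANPEP from -0.38 (CN 5 out) to 0.78 and MSTN from -0.59 to 0.78 (CN 5 out). The causes were not tested.

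Same-numbered arrays did not deviate together (r from -0.0561 to -0.00351 in CN and CH, and from -0.0919 to 0.127 in PN and PH), so the block is no pairing. Array signal near the floor limits the genes there. The promoter description that had been planned was not made.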
